A study of Mus musculus with 14 samples.

Results

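The expression of 10 genes of the bone morphogenetic protein (BMP) pathway was followed across 12 bulk RNA-seq libraries of mouse gastric tumours. The genes were chosen by symbol, with earlier results of these data known, and all 10 were found among the 24421 entries of the count tables. They are the ligands Bmp2, Bmp4 and Bmp7, the secreted antagonist Grem1, the type I receptors Bmpr1a and Bmpr1b, and the target genes Id1, Id2, Id3 and Id4. The tumours had been transplanted into mice and collected 2 months later. They form 4 groups of 3 libraries, named orthotopic TMPC (grown in the stomach), subcutaneous TMPC, subcutaneous TMP and subcutaneous TM. The labels used here name no strain, age, sex, cell line, allele or treatment, so TM, TMP and TMPC are used only as names. Nothing in them says that the libraries of a group came from separate animals or cultures, so every p-value below reflects variation among these libraries, part of which may be technical.

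BMP ligands bind a complex of type I and type II serine/threonine kinase receptors at the cell surface. The type I receptor then phosphorylates Smad1, Smad5 and Smad9, which enter the nucleus with Smad4 and switch on target genes, the Id genes among them. Id proteins lack a DNA-binding region of their own and hold basic helix-loop-helix (bHLH) factors such as the E proteins off DNA. Gremlin 1, the product of Grem1, binds BMP ligands outside the cell and keeps them from their receptors. In the stomach and gut the pathway is known for restraining epithelial growth, with antagonists supplied by the muscle and stroma near the stem cell zone.

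Promoter sequences of RefSeq (build GRCm38.p6) were matched by symbol for 7 of the 10 genes; Bmp2, Bmp7 and Id1 had no entry. The 250 bases before the first start are shown 5′ to 3′ for Bmp4 and Grem1, whose levels moved most between the tumour sites, and for Id2 and Id3, Id genes that did not pass the test there. Capitals mark GGCGCC, a GC-rich motif known to bind Smad1 and Smad5.
Bmp4, chr14:46390670-46390919, minus strand: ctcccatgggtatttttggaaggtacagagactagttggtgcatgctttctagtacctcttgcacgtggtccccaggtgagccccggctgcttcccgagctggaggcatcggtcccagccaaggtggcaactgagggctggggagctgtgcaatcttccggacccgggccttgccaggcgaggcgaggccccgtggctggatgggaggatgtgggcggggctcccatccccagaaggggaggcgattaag
Grem1, chr2:113758649-113758898, minus strand: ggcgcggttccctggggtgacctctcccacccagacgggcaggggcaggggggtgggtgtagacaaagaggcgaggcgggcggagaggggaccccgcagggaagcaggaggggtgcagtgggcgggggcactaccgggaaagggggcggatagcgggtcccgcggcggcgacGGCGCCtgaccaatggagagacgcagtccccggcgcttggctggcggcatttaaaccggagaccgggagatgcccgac
Id2, chr12:25096093-25096342, minus strand: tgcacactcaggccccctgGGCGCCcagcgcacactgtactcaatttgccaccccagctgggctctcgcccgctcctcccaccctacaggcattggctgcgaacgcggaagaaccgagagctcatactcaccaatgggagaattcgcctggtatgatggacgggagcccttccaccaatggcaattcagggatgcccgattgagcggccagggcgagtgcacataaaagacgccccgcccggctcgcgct
Id3, chr4:136143572-136143821, plus strand: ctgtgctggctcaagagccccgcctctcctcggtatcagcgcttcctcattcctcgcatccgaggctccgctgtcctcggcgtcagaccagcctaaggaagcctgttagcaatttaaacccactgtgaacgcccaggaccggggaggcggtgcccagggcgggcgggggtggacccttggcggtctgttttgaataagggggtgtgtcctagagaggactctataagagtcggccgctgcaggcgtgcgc

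The letters GGCGCC, searched on both strands, occurred 1 time in the Grem1 window (78 bases before the start) and 1 time in the Id2 window (231 bases before it). They were in neither the Bmp4 nor the Id3 window, and 9.59% of 32851 promoter windows of the same length held them. Among the other windows matched, those of Bmpr1a and Id4 held 1 GGCGCC each and those of the 3 Bmpr1b starts held 0. The shorter Smad motif GTCT, also searched on both strands, was present 1 time for Bmp4, 4 times for Grem1, 1 time for Id2 and 2 times for Id3, but 82.9% of all windows held it. The GC content of these windows was 63.2% for Bmp4, 72.0% for Grem1, 62.8% for Id2 and 62.8% for Id3, against a median of 52.4% over all promoters. These matches describe the letters only. By the gene positions given below, the windows of Id2, Id3, Bmpr1a and Bmpr1b lie inside the annotated genes. Those of Bmp4, Grem1 and Id4 lie before them.

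Total counts ranged from 16584781 to 21107310 per library, and all 10 genes passed the filter on low counts in both fits. Levels are CPM, each count divided by the library total after TMM scaling, and comparisons between genes use CPM per kilobase of exon. A library stood apart in the TM group and another in the orthotopic group. Subcutaneous TM replicate 2 had a summed level of 8 epithelial markers (Epcam, Cdh1, keratins and claudins) of 253 CPM, against 4610 and 4970 CPM in replicates 1 and 3 of that group. In the same library 6 B and plasma cell markers summed to 2770 CPM (13.8 and 14.6 CPM in the others) and 6 adipocyte markers to 4020 CPM (17.7 and 19.2 CPM). Orthotopic TMPC replicate 3 held 8800 CPM of 8 liver markers, against 57.3 and 47.8 CPM in replicates 1 and 2. The non-coding Xist transcript of the inactive X chromosome was at 191 to 1390 CPM in the TM libraries and at no more than 13.5 CPM in the others. Counts of Y-linked genes summed to 0 in TM replicate 2, to 2179 and 2303 in TM replicates 1 and 3, and to 493 to 5420 in the other groups; the part of sex in the comparisons with TM was not tested.

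**Figure D1:**
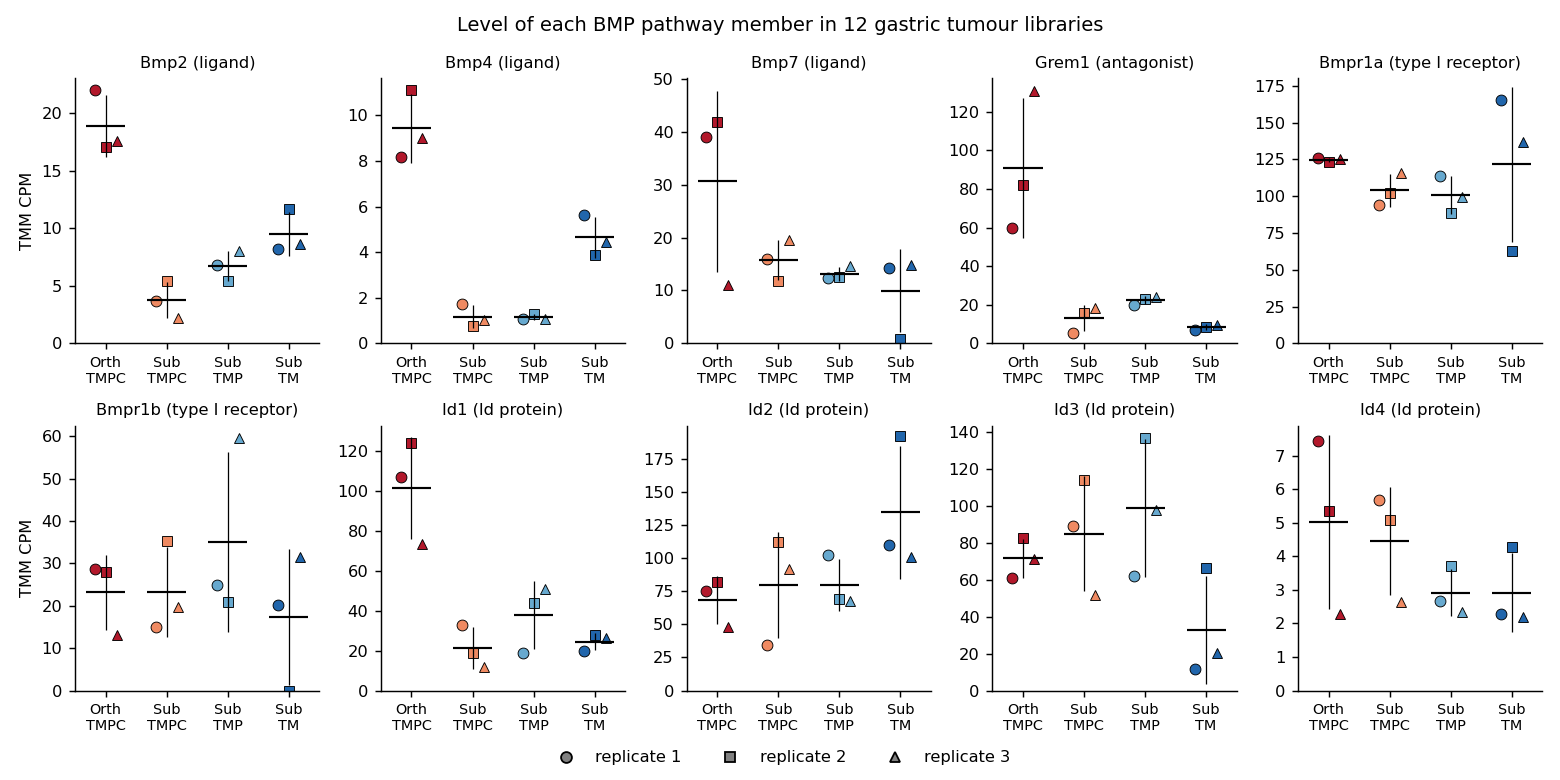
Level of each gene in TMM CPM (vertical axes, linear, each with its own range) in the 12 libraries; points are libraries, shapes are replicate numbers, horizontal bars are means and vertical lines are 1 SD (n = 3). Bmp2, Bmp4, Grem1 and Id1 of orthotopic TMPC tumours lie above all libraries of the other groups, and the Bmp7 and Bmpr1b points of TM replicate 2 lie at 0.867 and 0 CPM.

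An Id gene had the highest level of the set in every group. Per kilobase, Id1 led in orthotopic TMPC tumours at 87.7 ± 22.3 CPM (SD, n = 3), followed by Id3 at 40.0 ± 6.02 and Id2 at 28.1 ± 7.44 CPM, and the libraries of these neighbours did not overlap. In subcutaneous TMPC tumours Id3 came first at 47.4 ± 17.4 CPM per kilobase, then Id2 at 32.6 ± 16.5 and Id1 at 18.4 ± 9.23, all with overlapping libraries. In subcutaneous TMP tumours Id3 also had the highest mean, 55.3 ± 21.1 CPM per kilobase, and in TM tumours Id2 did, at 55.2 ± 20.6, with no TM library of Id1 reaching it; Bmpr1a followed Id1 there and stood above Id3 on average. Bmpr1a stood between 15.9 and 19.6 CPM per kilobase on average in all 4 groups, whereas the other type I receptor, Bmpr1b, stood between 2.91 and 5.89. Bmp4 was the lowest of the 10 in subcutaneous TMPC (0.524 ± 0.231) and TMP tumours (0.513 ± 0.0588 CPM per kilobase), and Id4 was the lowest in orthotopic TMPC and TM tumours.

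The first comparison asks how TMPC tumours grown in the stomach differed from TMPC tumours grown under the skin. Transcripts of 2 ligands, of the antagonist Grem1 and of 1 Id gene were higher in the orthotopic tumours: Bmp2 by 5.18-fold, Bmp4 by 8.35-fold, Grem1 by 7.23-fold and Id1 by 4.96-fold. The receptors and the other Id genes did not pass the test. Thus 4 of 10 members rose and 0 fell, where 14% of the 15123 genes tested rose, 13.8% fell and 27.8% were called in either direction. The median log2 fold change was 0.66 over the members and 0.05 over all genes tested. Because the genes were chosen with earlier results of these data known, these shares and medians only describe the set. Libraries of the 2 sites did not overlap for 5 members (these 4 and Bmpr1a), as for 48.7% of all genes.

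Among the ligands, Bmp4 (mm10 chr14:46383520-46390669, minus strand) encodes a ligand that mesenchymal cells of the gut are known to secrete. Its level was 8.18, 11.1 and 9.03 CPM in the orthotopic TMPC libraries, against 1.75, 0.748 and 1.03 CPM in the subcutaneous ones. The lowest orthotopic library stood well above the highest subcutaneous one, and the log2 fold change was 3.06 ± 0.45 (SE; edgeR quasi-likelihood test, adjusted p = 0.0105; 95% interval 1.98 to 4.14). Exons of Bmp4 overlap those of the predicted gene Gm15217, so its count is uncertain by the reads that could be assigned to either. Bmp2 (chr2:133552159-133562885, plus strand), a ligand close to Bmp4 in sequence, was at 22.0, 17.0 and 17.6 CPM in orthotopic tumours, against 3.68, 5.40 and 2.22 CPM in subcutaneous tumours. These groups were also fully apart, with a log2 fold change of 2.37 ± 0.40 (edgeR adjusted p = 0.0128).

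Bmp7 (chr2:172868012-172940321, minus strand), a ligand of another subgroup that can pair with Bmp2 or Bmp4, was less uniform. Its level was 39.0, 41.9 and 11 CPM in the orthotopic libraries, against 16.0, 11.8 and 19.5 CPM in the subcutaneous ones. Orthotopic replicate 3, the library with the liver markers, lay below all 3 subcutaneous libraries, and the difference did not pass the test (log2 fold change 1.01 ± 0.50, edgeR adjusted p = 0.166). Without that library it was 1.39 ± 0.26 with an adjusted p of 0.0159. The summed level of the 3 ligands per kilobase was 19.5, 20.2 and 11.7 CPM in orthotopic tumours, against 5.8, 4.79 and 5.92 CPM in subcutaneous TMPC tumours. Bmp4 supplied 18.6%, 24.6% and 34.3% of that sum in the orthotopic libraries, against 13.4%, 6.95% and 7.75% in the subcutaneous ones, where Bmp7 made up 61.4% to 81.7%.

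Grem1 (chr2:113746164-113758646, minus strand) was at 59.7, 81.9 and 131 CPM in orthotopic TMPC tumours, against 5.44, 15.6 and 18.2 CPM in subcutaneous TMPC tumours. All orthotopic libraries lay above all subcutaneous ones, with a log2 fold change of 2.85 ± 0.54 (edgeR adjusted p = 0.0156; 95% interval 1.57 to 4.14). Transcripts of the antagonist and of the ligands Bmp2 and Bmp4 were thus both more abundant at the orthotopic site. The ratio of Grem1 to the ligand sum, per kilobase, was 0.736, 0.979 and 2.70 in the orthotopic libraries, against 0.226, 0.785 and 0.739 in the subcutaneous ones. Only orthotopic replicate 1 fell within the range of the subcutaneous TMPC libraries on this ratio. Orthotopic replicate 2 lay within the range of the subcutaneous TMP libraries, which stood at 0.884, 1.06 and 0.911.

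Neither type I receptor passed between the sites. Bmpr1a (chr14:34410734-34503341, minus strand), a broadly expressed receptor whose exons overlap those of the predicted gene Gm17110, was at 126, 123 and 125 CPM in orthotopic tumours, against 93.7, 102 and 116 CPM in subcutaneous tumours. The groups did not overlap, but the log2 fold change of 0.32 ± 0.14 missed the threshold (edgeR adjusted p = 0.123; 95% interval -0.01 to 0.64). Bmpr1b (chr3:141837136-142169425, minus strand), a receptor of more restricted expression, was at 28.8, 27.9 and 13.0 CPM in orthotopic tumours, against 14.9, 35.3 and 19.7 CPM in subcutaneous tumours. These libraries were intermixed, and the interval of the log2 fold change ran from -1.01 to 1.09 around an estimate of 0.04 (edgeR adjusted p = 0.953). Bmpr1b made up 19.6%, 19.5% and 9.94% of the 2 type I receptors per kilobase in orthotopic libraries, against 14.4%, 26.9% and 15.3% in subcutaneous TMPC libraries.

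Of the Id genes, Id1 (chr2:152736251-152737410, plus strand), one of the most direct Smad targets known, was at 107, 124 and 73.7 CPM in orthotopic TMPC tumours, against 33.0, 19.0 and 12 CPM in subcutaneous TMPC tumours. The lowest orthotopic value was more than the highest subcutaneous one, and the log2 fold change was 2.31 ± 0.39 (edgeR adjusted p = 0.0133; 95% interval 1.36 to 3.26). Id3 (chr4:136143497-136145755, plus strand), often induced by BMP together with Id1, was at 61.1, 82.6 and 71.2 CPM, against 89.2, 114 and 51.9 CPM in the subcutaneous libraries. The orthotopic values lay inside the subcutaneous range, with a log2 fold change of -0.19 ± 0.30 (edgeR adjusted p = 0.657; 95% interval -0.91 to 0.53). Id2 (chr12:25093799-25097140, minus strand), which also answers signals other than BMP, was at 75.4, 82.1 and 47.9 CPM in orthotopic tumours, against 34.7, 112 and 91.9 CPM in subcutaneous tumours. Here too the groups overlapped, and the estimate was -0.17 ± 0.44 (edgeR adjusted p = 0.789).

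Id4 (chr13:48261228-48266026, plus strand), the Id protein best known from neural and germline cells, was at 7.42, 5.34 and 2.27 CPM in orthotopic tumours, against 5.67, 5.08 and 2.63 CPM in subcutaneous TMPC tumours. Its exons overlap those of A330033J07Rik and Gm49291, and the sites were not separated (log2 fold change 0.22 ± 0.54, edgeR adjusted p = 0.785). The make-up of the Id transcripts also differed between the sites. Id1 formed 57.9%, 56.9% and 51.4% of the Id total per kilobase in orthotopic libraries, against 30.3%, 12.9% and 13.3% in subcutaneous TMPC libraries. Id3 formed 21.4%, 24.5% and 32.2% of it in orthotopic libraries, against 53.0%, 49.9% and 37.3% in subcutaneous ones.

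**Figure D2:**
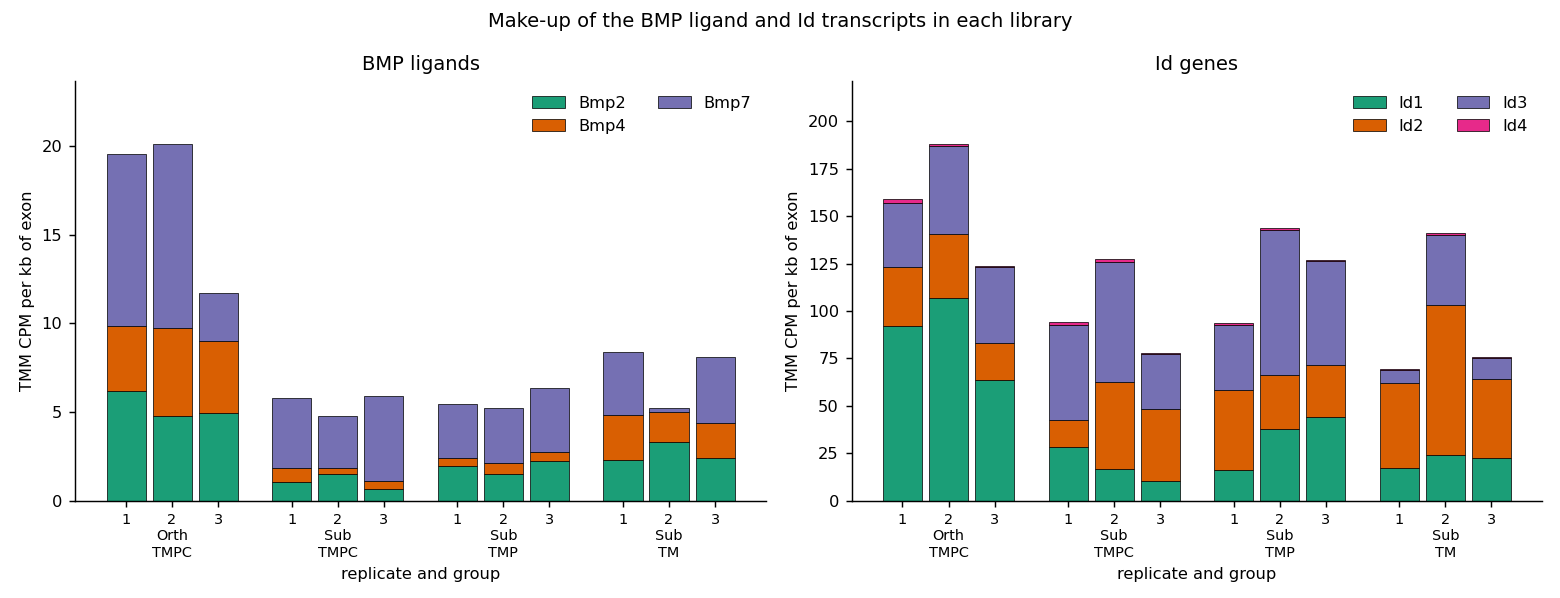
Stacked TMM CPM per kilobase of exon of the 3 ligands (left) and the 4 Id genes (right) in each of the 12 libraries, with bars starting at 0. Id1 makes up 51.4% to 57.9% of the Id total in orthotopic TMPC libraries and 12.9% to 34.7% in the subcutaneous ones, and the ligand bars of orthotopic libraries reach 11.7 to 20.2 CPM per kilobase.

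The 4 site calls rested on small groups. Without orthotopic replicate 2 none of them passed (edgeR adjusted p 0.0514 for Bmp4, 0.0516 for Bmp2, 0.0537 for Id1 and 0.0546 for Grem1), and 387 of all genes did, against 4204 with all libraries. Without subcutaneous TMPC replicate 2 Grem1 (0.0511) and Id1 (0.0540) did not pass either, while Bmp2 and Bmp4 did. The log2 fold changes ranged from 2.09 to 2.68 for Bmp2, 2.76 to 3.43 for Bmp4, 2.46 to 3.15 for Grem1 and 2.01 to 2.74 for Id1 over the 6 fits that each left out 1 library. The authors' deposited table gives log2 fold changes of 2.36, 3.05, 2.85 and 2.29 for Bmp2, Bmp4, Grem1 and Id1, with adjusted p-values of 8.84e-08, 3.85e-10, 1.44e-06 and 1.60e-06.

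Markers of several tissues and cell types moved with the site. Their counts stand beside the 14% of all genes that rose and the 13.8% that fell. Gastric epithelial markers (Muc5ac, Tff1, Gkn1 and others, 9 measured) summed to 3710 to 6030 CPM in orthotopic tumours. In subcutaneous TMPC tumours they summed to 0.819 to 1.44 CPM, with up to 7 of the 9 at 0. All 9 rose, but in the subcutaneous fit only 2 gastric markers passed the filter. Most of the 9 were thus tested through the orthotopic libraries, so this count was largely set by the filter. Smooth muscle and pericyte markers summed to 733 to 1680 CPM in orthotopic tumours, against 379 to 517 CPM (4 of 8 rose), and fibroblast markers to 6880 to 18800 CPM, against 3840 to 5850 CPM (2 of 8 rose). Endothelial markers summed to 228 to 600 CPM, against 154 to 207 CPM (1 of 8 rose), while 5 of 6 skeletal muscle markers fell. General epithelial markers summed to 4990 to 8230 CPM in orthotopic tumours, against 1210 to 4000 CPM (3 of 8 rose), and macrophage markers to 691 to 1370 CPM, against 361 to 598 CPM (2 of 8 rose). Of those tested, 3 of 7 liver, 2 of 2 mesothelial and 2 of 3 B and plasma cell markers also rose. In the subcutaneous fit 3 liver markers were tested. The part of these cells in the values of the BMP genes was not tested, and in bulk tissue fewer cells of a type and less RNA per cell cannot be told apart.

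The other BMP genes were read from lists of the pathway. Of 13 other antagonists tested between the sites, 4 rose and 0 fell, where 14% of all genes rose and 13.8% fell. Their median log2 fold change was 1.41, against 0.05 over all genes. Chrdl2 (323 orthotopic counts against 2 subcutaneous TMPC counts) and Nog (128 against 16) passed the filter through the orthotopic libraries. Such genes can add only to the higher side, so the count and the median lean that way. In the subcutaneous fit 11 antagonists were tested. Nbl1, a secreted relative of gremlin, was at 94.5, 90.8 and 101 CPM in orthotopic tumours, against 44.3, 25.9 and 42.5 CPM in subcutaneous TMPC tumours (log2 fold change 1.41 ± 0.22, edgeR adjusted p = 0.0114). Fstl3, a follistatin-like protein that binds ligands of this superfamily, was at 9.2, 7.87 and 13.9 CPM, against 3.92, 2.3 and 4.85 CPM (1.55 ± 0.43, edgeR adjusted p = 0.0412). For both genes the groups were fully apart. The Fstl3 call ended whichever of the 6 libraries was left out (adjusted p 0.0681 to 0.118), and that of Nbl1 only without orthotopic replicate 2 (0.0514). The antagonist Chrdl2 was at 1.78, 4.57 and 10.1 CPM in orthotopic libraries, against 2 counts in all 3 subcutaneous TMPC libraries together (edgeR adjusted p = 0.0109). Its call ended without orthotopic replicate 2 (0.0511). The remaining antagonist call ended whichever of the 6 libraries was left out (edgeR adjusted p 0.0840 to 0.123).

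Among 9 other receptors and coreceptors, 2 rose and 1 fell between the sites, a share near the 27.8% of all genes called. Acvrl1, a type I receptor mainly of endothelial cells, was at 25.2, 20.6 and 36.4 CPM in orthotopic tumours, against 10.6, 11.1 and 8.93 CPM (log2 fold change 1.48 ± 0.29, edgeR adjusted p = 0.017). Eng, an endothelial coreceptor, rose by 0.99 ± 0.29 (0.045), and Neo1, a receptor that binds the Rgm coreceptors, fell by 0.61 ± 0.14 on the log2 scale (0.0229). Each of these 3 calls ended in at least 4 of the 6 fits without 1 library, with adjusted p-values of up to 0.124. Of 8 other ligands, 1 rose and 0 fell: Bmp3 gave 120 counts in the orthotopic libraries together, against 8 counts in the subcutaneous TMPC libraries (edgeR adjusted p = 0.0422), and its call held in 1 of the 6 fits without 1 library. Of 10 Smads and regulators, 0 rose and 1 fell: Smad5, a transducer of the BMP signal, was at 97.8, 90.9 and 115 CPM, against 188, 192 and 172 CPM (-0.81 ± 0.15, edgeR adjusted p = 0.0153). The Smad5 call ended without orthotopic replicate 1 or 2 (adjusted p of up to 0.0639). Of 7 other BMP response genes, 0 passed.

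Of 6 partners of the Id proteins and related factors, 0 rose and 2 fell at the orthotopic site, with a median log2 fold change of -0.76, where 13.8% of all genes fell and the median was 0.05. Tcf3, which encodes the E proteins E12 and E47, was at 101, 112 and 115 CPM in orthotopic TMPC tumours, against 245, 291 and 257 CPM in subcutaneous TMPC tumours (log2 fold change -1.22 ± 0.15, edgeR adjusted p = 0.00872). Tcf12, which encodes the E protein HEB, was at 92.8, 119 and 105 CPM, against 207, 176 and 227 CPM (-0.89 ± 0.17, edgeR adjusted p = 0.0156). For both genes all orthotopic libraries lay below all subcutaneous TMPC libraries. The Tcf3 call held in all 6 fits without 1 library, and that of Tcf12 ended without orthotopic replicate 1 or 2 (adjusted p of up to 0.0544).

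**Figure D3:**
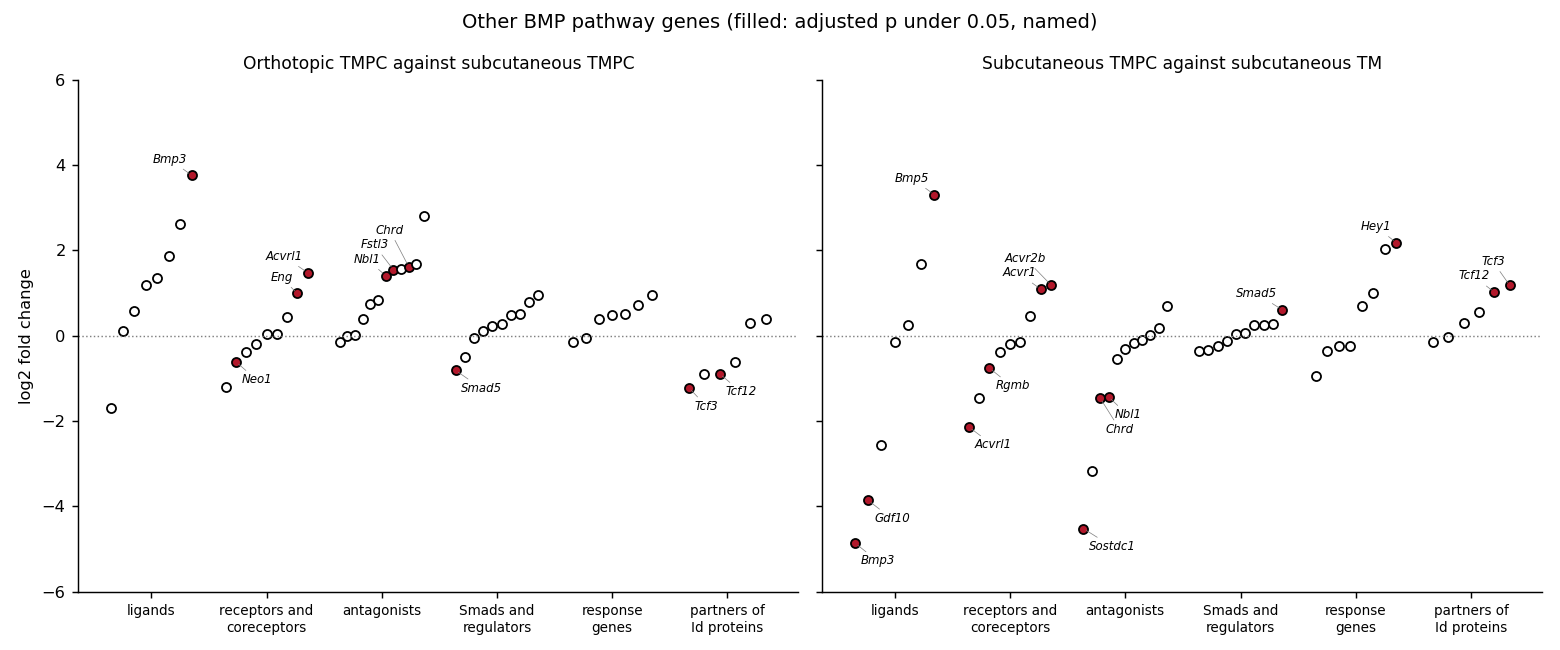
Log2 fold changes (vertical axis) of the other BMP pathway genes by list, for orthotopic against subcutaneous TMPC tumours (left) and subcutaneous TMPC against TM tumours (right); filled, named points have an edgeR adjusted p under 0.05, and Chrdl2 is left out because 1 group held only 2 counts. Antagonists are called on the higher side only on the left (Nbl1 at 1.41, Fstl3 at 1.55) and on the lower side only on the right (Chrd at -1.46), and Tcf3 is at -1.22 on the left and 1.18 on the right.

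The next comparisons set the subcutaneous TMPC and TMP tumours against the subcutaneous TM tumours. Both share the same 3 TM libraries, so their results are not independent of each other. Bmp4 was lower in TMPC tumours (0.244-fold) and in TMP tumours (0.243-fold) than in TM tumours. Bmp2 was lower in TMPC tumours, and Grem1 was higher in TMP tumours. In TMPC against TM tumours 0 members rose and 2 fell, where 18% of 15277 genes rose, 17.8% fell and 35.8% were called in all. In TMP against TM tumours 1 rose and 1 fell, where 14.3% of genes rose, 13.4% fell and 27.7% were called in all. Libraries did not overlap for 2 members in TMPC against TM tumours (47.7% of genes) and for 3 in TMP against TM tumours (50.7% of genes). The median log2 fold change of the members was 0.07 in TMPC tumours and 0.17 in TMP tumours, and -0.07 over all genes in both comparisons.

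**Figure D4:**
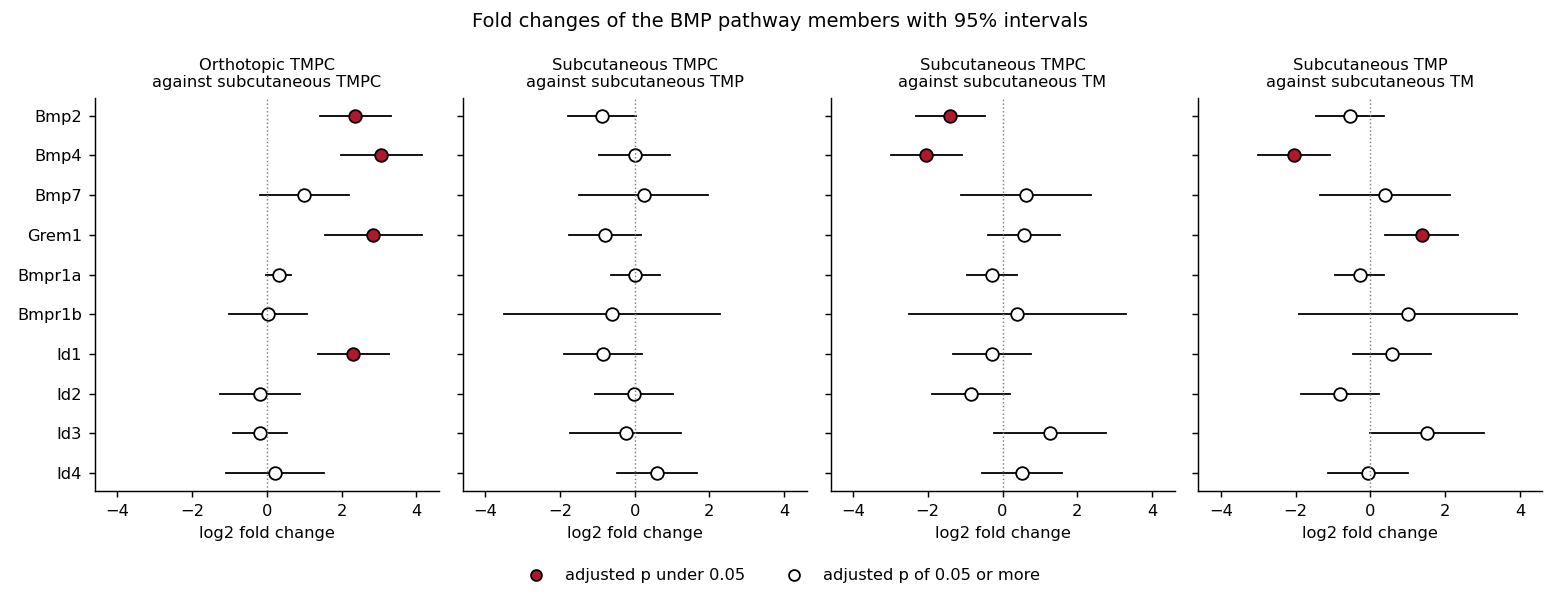
Log2 fold changes (horizontal axes) of the 10 genes in the 4 comparisons, with 95% intervals from the edgeR quasi-likelihood fit; filled points have an adjusted p under 0.05. Bmp4 stands at 3.06 in orthotopic against subcutaneous TMPC tumours and at -2.04 in both comparisons with TM tumours, and no point is filled for TMPC against TMP tumours.

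Bmp4 was at 1.75, 0.748 and 1.03 CPM in subcutaneous TMPC tumours and at 1.07, 1.30 and 1.08 CPM in TMP tumours, against 5.64, 3.87 and 4.44 CPM in TM tumours. The TM libraries lay above all others in both comparisons. The log2 fold change was -2.04 ± 0.42 in TMPC tumours (edgeR adjusted p = 0.00844; 95% interval -2.99 to -1.08) and -2.04 ± 0.42 in TMP tumours (0.0123; -3.00 to -1.08). In TMPC tumours it passed in all 9 fits that left out 1 library. In TMP tumours it ended without TMP replicate 1 or without TMP replicate 3 (adjusted p of up to 0.0616). Leaving out TM replicate 2, the library low in epithelial markers, gave -2.10 in TMPC tumours (0.00813) and -2.11 in TMP tumours (0.0114).

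Bmp2 was at 3.68, 5.40 and 2.22 CPM in TMPC tumours and at 6.84, 5.38 and 7.99 CPM in TMP tumours, against 8.19, 11.7 and 8.61 CPM in TM tumours. All TM libraries exceeded those of both other groups. The log2 fold change was -1.40 ± 0.40 in TMPC tumours (edgeR adjusted p = 0.0278) and -0.55 ± 0.39 in TMP tumours (0.32; 95% interval -1.45 to 0.36). The TMPC call ended without TMPC replicate 1 or 3 (adjusted p of up to 0.0771) and when only these 2 groups were fitted (0.072). Bmp7 was at 16.0, 11.8 and 19.5 CPM in TMPC tumours and at 12.3, 12.5 and 14.6 CPM in TMP tumours, against 14.3, 0.867 and 14.8 CPM in TM tumours. Apart from TM replicate 2 these libraries lay between 11.8 and 19.5 CPM, and neither comparison passed (log2 fold change 0.63 ± 0.76 and adjusted p 0.541 in TMPC tumours, 0.39 ± 0.76 and 0.723 in TMP tumours, edgeR).

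Grem1 was at 5.44, 15.6 and 18.2 CPM in TMPC tumours and at 20, 22.8 and 24.0 CPM in TMP tumours, against 6.92, 8.47 and 9.80 CPM in TM tumours. The TMP libraries were all higher than the TM libraries and the TMPC libraries spanned them. The log2 fold change was 0.58 ± 0.42 in TMPC tumours (edgeR adjusted p = 0.306) and 1.37 ± 0.42 in TMP tumours (0.0448; 95% interval 0.39 to 2.34). The TMP call was close to the threshold: it ended in 7 of the 9 fits without 1 library, namely each TM and each TMP replicate and TMPC replicate 2, with adjusted p-values of up to 0.115. In TMPC tumours Grem1 passed without TMPC replicate 1 (1.00 ± 0.24, adjusted p = 0.0218). Relative to the ligand sum per kilobase, Grem1 stood at 0.226, 0.785 and 0.739 in TMPC tumours and at 0.884, 1.06 and 0.911 in TMP tumours, against 0.199, 0.391 and 0.292 in TM tumours.

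Neither receptor passed in these comparisons. Bmpr1a was at 93.7, 102 and 116 CPM in TMPC tumours and at 114, 88.8 and 99.5 CPM in TMP tumours, against 165, 63.0 and 137 CPM in TM tumours, where replicate 2 was the lowest of all libraries. Its log2 fold change was -0.27 ± 0.29 in TMPC tumours (edgeR adjusted p = 0.487) and -0.29 ± 0.29 in TMP tumours (0.47). Without TM replicate 2 both passed, at -0.54 ± 0.16 in TMPC tumours (0.0303) and -0.58 ± 0.16 in TMP tumours (0.0306). Bmpr1b was at 14.9, 35.3 and 19.7 CPM in TMPC tumours and at 24.9, 20.9 and 59.6 CPM in TMP tumours, against 20.3, 0 and 31.6 CPM in TM tumours. The 0 of TM replicate 2 allows a level of up to 0.181 CPM before TMM scaling (3 counts, counting error only). The interval of the log2 fold change was wide, from -2.49 to 3.29 in TMPC tumours and from -1.90 to 3.92 in TMP tumours.

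In this fit no Id gene passed with all libraries, and Id3 passed without TM replicate 2. Id3 was at 89.2, 114 and 51.9 CPM in TMPC tumours and at 62.0, 137 and 97.7 CPM in TMP tumours, against 11.9, 66.3 and 20.1 CPM in TM tumours. TM replicate 2 reached into the range of the other groups and TM replicates 1 and 3 did not. The log2 fold change was 1.27 ± 0.65 in TMPC tumours (edgeR adjusted p = 0.159) and 1.51 ± 0.66 in TMP tumours (0.117). Without TM replicate 2 it was 2.41 ± 0.46 in TMPC tumours (0.00538) and 2.64 ± 0.47 in TMP tumours (0.00597). The authors' deposited table compares TM with the others, so its sign runs the other way; there the log2 fold change was -1.39 for Id3 (adjusted p = 0.0293), -1.01 for Grem1 (0.0425), 2.06 for Bmp4 (9.28e-10) and 0.92 for Bmp2 (0.0511). Id2 was at 34.7, 112 and 91.9 CPM in TMPC tumours and at 102, 68.7 and 67.4 CPM in TMP tumours, against 110, 192 and 101 CPM in TM tumours. Its groups overlapped, with log2 fold changes of -0.84 ± 0.45 in TMPC tumours (edgeR adjusted p = 0.18) and -0.82 ± 0.45 in TMP tumours (0.205).

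Id1 was at 33.0, 19.0 and 12 CPM in TMPC tumours and at 18.7, 43.9 and 51.0 CPM in TMP tumours, against 19.6, 28.0 and 26.2 CPM in TM tumours. The groups overlapped in both comparisons, with log2 fold changes of -0.28 ± 0.46 in TMPC tumours (edgeR adjusted p = 0.658) and 0.58 ± 0.46 in TMP tumours (0.365). Id4 stayed low throughout, at 2.63 to 5.67 CPM in TMPC tumours and 2.35 to 3.70 CPM in TMP tumours, against 2.20 to 4.27 CPM in TM tumours. Per kilobase, Id2 formed 15.1% to 48.5% of the Id total in TMPC tumours and 19.6% to 45.0% in TMP tumours, against 54.8% to 65.2% in TM tumours, so that the TM libraries lay above all others on this share. Id3 formed 37.3% to 53.0% in TMPC tumours and 37.0% to 53.4% in TMP tumours, against 9.57% to 26.2% in TM tumours.

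Markers of several cell types moved with these comparisons as well. Macrophage markers summed to 361 to 598 CPM in TMPC tumours and 420 to 682 CPM in TMP tumours, against 1700 to 2870 CPM in TM tumours, and 7 of 8 fell in either comparison. T and NK cell markers summed to 1.24 to 7.08 CPM in TMPC tumours and 2.5 to 6.07 CPM in TMP tumours, against 13.8, 309 and 19.0 CPM in TM tumours, and 4 of 5 tested fell in either comparison. B and plasma cell markers fell in 3 of 3 tested in TMPC tumours and 2 of 3 in TMP tumours, with most of their TM signal in replicate 2. Skeletal muscle markers summed to 26.5 to 209 CPM in TMPC tumours and 2.96 to 194 CPM in TMP tumours, against 1.92 to 3.27 CPM in TM tumours, with 3 and 2 of 6 higher. Of 8 fibroblast markers 1 fell in either comparison, and of 8 endothelial markers 1 fell in TMPC tumours and 0 passed in TMP tumours. Mesothelial markers summed to 922, 1.53 and 700 CPM in TM tumours. They summed to 1.87 to 5.21 CPM in TMPC and 6.8 to 13.6 CPM in TMP tumours. Of 2 tested, 1 fell in TMPC and 1 rose in TMP tumours. Gastric epithelial markers summed to 29.4, 1.47 and 18.9 CPM in TM tumours and at most 1.74 CPM in TMPC and TMP tumours. Of these, 1 of 2 tested fell in TMPC tumours, as did 2 of 6 Schwann cell and neuron markers. Of all genes, 18% rose and 17.8% fell in TMPC tumours, and 14.3% rose and 13.4% fell in TMP tumours. The part of these cells in the levels of the BMP genes was not tested.

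The same lists of other BMP genes were read in both comparisons with TM tumours. Of 11 other antagonists tested, 0 rose and 3 fell in TMPC tumours, namely Chrd, Nbl1 and Sostdc1, and 0 passed in TMP tumours. Chrd, which encodes the ligand-binding protein chordin, was at 0.936, 1.55 and 1.19 CPM in TMPC tumours, against 2.77, 3.94 and 2.98 CPM in TM tumours, with no overlap (log2 fold change -1.46 ± 0.38, edgeR adjusted p = 0.0207). The change was -1.43 ± 0.46 for Nbl1 (0.0402). Sostdc1 was at 1.35, 0.107 and 0.103 CPM in TMPC tumours, against 0.958, 28.8 and 2.56 CPM in TM tumours (0.0487), with its high value in TM replicate 2, and its call ended in 6 of 9 fits without 1 library, that without TM replicate 2 among them (-1.79 ± 1.04, adjusted p = 0.196). The Chrd call ended without TMPC replicate 1 or 3 (adjusted p of up to 0.0676), and that of Nbl1 in 8 of 9 fits, passing only without TM replicate 2, whose Nbl1 level of 34.6 CPM was low against 114 and 147 CPM in the other TM libraries. Of 9 other receptors and coreceptors, 2 rose and 2 fell in either comparison, where 35.8% of all genes were called in TMPC tumours and 27.7% in TMP tumours. Acvr1, a type I receptor, rose by 1.09 ± 0.31 in TMPC tumours (edgeR adjusted p = 0.0278) and by 1.09 ± 0.31 in TMP tumours (0.0348). Rgmb, a coreceptor, fell by 0.76 ± 0.25 in TMPC tumours (0.0419) and by 0.90 ± 0.25 in TMP tumours (0.0303). Acvrl1 fell by 2.14 ± 0.58 in TMPC tumours (0.0227), where it was at 10.6, 11.1 and 8.93 CPM, against 21.7, 79.7 and 24.2 CPM in TM tumours. Its high value was in TM replicate 2, without which the log2 fold change was -1.17 ± 0.34 (0.0263). Acvr2b, a type II receptor, rose by 1.44 ± 0.39 in TMP tumours (0.0306). Of the 9 fits without 1 library, the call ended in 2 for Acvr1, 7 for Rgmb and 3 for Acvrl1 in TMPC tumours, and in 7 for Acvr1, 6 for Rgmb and 4 for Acvr2b in TMP tumours.

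Of 7 other ligands, 1 rose and 2 fell in TMPC against TM tumours, and 2 rose and 1 fell in TMP against TM tumours. In all, 35.8% of genes were called in the first of these comparisons and 27.7% in the second. Bmp5, a ligand related to Bmp7, was at 2.87, 1.23 and 1.03 CPM in TMPC tumours and at 0.773, 0.598 and 1.65 CPM in TMP tumours, against 0.319, 0.0667 and 0.0916 CPM in TM tumours. Bmp3, an atypical ligand that opposes BMP signalling, was at 0.351, 0.107 and 0 CPM in TMPC tumours and at 0.535, 0.761 and 0.705 CPM in TMP tumours, against 5.32, 2.6 and 5.17 CPM in TM tumours. Both genes separated TM from the other groups at low levels. Gdf10, a relative of Bmp3, fell in TMPC tumours (0.819, 0.481 and 0.103 CPM, against 5.37, 9.88 and 4.07 CPM in TM tumours), and Gdf5 rose in TMP tumours (1.25, 0.272 and 4.61 CPM, against 0.213, 0.133 and 0.0916 CPM). In TMPC tumours the Bmp3, Bmp5 and Gdf10 calls held in all 9 fits without 1 library, while in TMP tumours those of Bmp3, Bmp5 and Gdf5 ended in at least 6 of 9. These calls rested on few counts in the lower group. Over the TMPC libraries together Bmp3 gave 8 counts and Gdf10 25, and over the TM libraries Bmp5 gave 9 and Gdf5 8. Some values of these 4 genes lie below the level of 3 counts in a library.

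Of 10 Smads and regulators, 1 rose and 0 fell in TMPC tumours (Smad5, 0.61 ± 0.18, edgeR adjusted p = 0.0298) and 0 passed in TMP tumours; the Smad5 call ended without any 1 of the 3 TMPC replicates. Of 8 other response genes, 1 rose and 0 fell in either comparison. That gene, Hey1, a transcriptional repressor that both BMP and Notch can induce, was at 43.0, 26.9 and 12.2 CPM in TMPC tumours and at 19.9, 31.7 and 30.1 CPM in TMP tumours, against 3.35, 3.87 and 10.1 CPM in TM tumours. Its calls ended in 2 of 9 fits without 1 library in TMPC tumours and in 4 of 9 in TMP tumours. Of 6 Id partners and related factors, 2 rose and 0 fell in either comparison. Beside these lists, 18% of all genes rose and 17.8% fell in TMPC tumours, and 14.3% rose and 13.4% fell in TMP tumours. Tcf3 was at 245, 291 and 257 CPM in TMPC tumours and at 256, 218 and 191 CPM in TMP tumours, against 112, 111 and 113 CPM in TM tumours. The TM libraries lay below those of both other groups. Its log2 fold change was 1.18 ± 0.15 in TMPC tumours (edgeR adjusted p = 0.00162) and 0.95 ± 0.15 in TMP tumours (0.00539), and both calls held in all 9 fits without 1 library. Tcf12 rose by 1.02 ± 0.17 in TMPC tumours (0.00353) and by 0.67 ± 0.17 in TMP tumours (0.0214), where the call ended in 3 of 9 such fits.

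Subcutaneous TMPC tumours were last set against subcutaneous TMP tumours. None of the 10 members passed (0 of 10; edgeR adjusted p = 0.9999 for each), as none of the 15277 genes did: 0% were called in either direction, 3.04% (465 genes) had an unadjusted p under 0.05, and DESeq2 called 16. Of the members, 0 had an unadjusted p under 0.05 in edgeR. The libraries of the 2 groups did not overlap for 1 member, Grem1, as for 12.8% of all genes. Grem1 was at 5.44, 15.6 and 18.2 CPM in TMPC tumours, against 20, 22.8 and 24.0 CPM in TMP tumours, with a log2 fold change of -0.79 ± 0.42 (95% interval -1.75 to 0.17). Among the other estimates were -0.86 ± 0.40 for Bmp2 (-1.77 to 0.05), -0.85 ± 0.46 for Id1 (-1.90 to 0.20), -0.61 ± 1.26 for Bmpr1b (-3.50 to 2.28) and 0.59 ± 0.46 for Id4 (-0.47 to 1.66). Bmp4 (-0.94 to 0.94) and Bmpr1a (-0.64 to 0.69) had intervals centred near 0, which do not show that the groups were alike. The median log2 fold change was -0.13 over the members and 0.01 over all genes, and 0 genes of the 6 other pathway lists passed.

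Over the 12 libraries together the genes most like each member were found among 11983 genes by Pearson's r of log2(CPM + 1). These values describe libraries that share groups and tumour sites and whose cell markers differed. Bmp4 was most like Ctse (0.984), Naprt (0.971) and Smim24 (0.967); Ctse encodes cathepsin E, a protease of gastric surface cells. Grem1 was most like Wnt11 (0.945), Cnn1 (0.938) and Coq10b (0.919), of which Cnn1 encodes a smooth muscle calponin. Id1 was most like Tm7sf2 (0.929), Eln (0.904) and Sfrp1 (0.904), and Bmp2 was most like F5 (0.921), Hpgd (0.916) and Gucy1b3 (0.915). Bmpr1a was most like Ocln (0.957), Ajuba (0.948) and Pard6b (0.939), of which Ocln encodes a tight junction protein, and Bmpr1b was most like Sox2 (0.967), Fam160a1 (0.963) and Fnbp1l (0.960). The values nearest to Bmp7 were Pi4k2b (0.955), Ulk4 (0.953) and Fsd1l (0.953). For Id2 they were Dapk1 (0.926), Fbxo7 (0.900) and Skiv2l (0.894), for Id3 Cyb5b (0.948), Dmpk (0.919) and Mus81 (0.909), and for Id4 Ppp1r35 (0.881), BC023829 (0.872) and Cog4 (0.872). After removal of the group means r was 0.044 to 0.364 for the 3 genes nearest to Bmp2, 0.504 to 0.661 for those of Bmp4, 0.539 to 0.759 for those of Grem1, 0.573 to 0.9 for those of Id1 and 0.952 to 0.974 for those of both receptors. For Bmp7, Id2, Id3 and Id4 it was 0.760 to 0.951. Between members the highest r was 0.833 for Bmp2 and Bmp4, and that of Bmp7 and Bmpr1b was 0.809. Subcutaneous TM replicate 2 had the lowest Bmp7, Bmpr1a and Bmpr1b levels of all libraries (0.867, 63.0 and 0 CPM). The part of that library in the r values of these genes was not tested.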

How the data were processed

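Total polyA RNA from pieces of about 1 cm3 of tumour was sequenced as 150 bp pairs on a NovaSeq, per the labels' protocols. The submitters' processing notes name STAR 2.6.0, the mm10 build and DESeq2; the read counter, annotation and strand setting were not given in the sources used here. The authors deposited whole-number counts per gene in 2 tables of 24421 entries, with a normalized signal that, per the file headers, came from DESeq2, and with log2 fold changes and adjusted p-values of their own. From entry 12291 on, the subcutaneous table pairs its counts with shifted symbols, so names follow the position in the site table; the last of the 10 genes is entry 10504. The 2 single-cell samples were not analysed here.

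The tests used edgeR 4.0.16 (R 4.3.3; TMM, filterByExpr, quasi-likelihood F-test, Benjamini-Hochberg over all genes, threshold 0.05), with 9 subcutaneous libraries in one fit (6 residual degrees of freedom) and 6 TMPC libraries in another (4). SE is the size of the log2 fold change over the root of F. Scripts were tested on simulated data. Alternatives were DESeq2 1.42.0, other scalings, no filter, other sets of libraries, a replicate block and leaving out each library. The genes and lists were chosen with earlier results of these data known. All 10 genes are named in every comparison; of each other list, up to 3 called genes with the smallest adjusted p; and, for each of the 10, the 3 most alike genes of at least 5 CPM. Some genes of these lists are not reported here and are left out of the list counts. The labels name no targeted gene, so none was checked. Read pairs carry no molecular identifiers, so a floor of 3 counts covers counting error only.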

Additional observations from a re-analysis of the deposited data

How the results depend on the processing

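Leaving out 1 library moved the counts of calls most. Between orthotopic and subcutaneous TMPC tumours 0 to 5 members and 387 to 4789 genes passed, against 4 and 4204 with all; the gene counts were 1221 without orthotopic replicate 1, 387 without orthotopic replicate 2, and 1648 and 2094 without subcutaneous TMPC replicates 2 and 3. The replicate block gave 1777 genes and DESeq2 6371. In TMP against TM tumours 0 to 3 members and 1550 to 4885 genes passed, against 2 and 4239, with 1550, 2132 and 1870 genes without TMP replicates 1, 2 and 3. In TMPC against TM tumours 1 to 4 members and 3414 (without TMPC replicate 2) to 6390 genes passed, against 2 and 5469; fitting only these groups gave 1 member and 3536 genes. In TMPC against TMP tumours 0 genes passed with edgeR and 16 with DESeq2. The cause was not tested.

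Sign changes were confined, in the settings run, to members that did not pass. Between the sites Bmpr1b was at -0.028 without filter. In TMP against TM tumours Id4 was at 0.0298 with library totals and 0.0014 without filter. In TMPC against TMP tumours Id2 was at 0.00313 (RLE), 0.00568 (DESeq2) and 0.00115 (12 libraries), Bmp4 at -0.0309 (library totals) and -0.0665 (replicate block), and Bmpr1a at -0.0169 (library totals). Leaving out 1 library gave, between the sites, -0.224 to 0.433 for Bmpr1b, -0.552 to 0.115 for Id2, -0.461 to 0.0273 for Id3 and -0.157 to 0.544 for Id4. For TMP against TM it gave -0.137 to 0.786 for Bmp7 and -0.237 to 0.382 for Id4. For TMPC against TM it gave -0.541 to 0.0403 for Bmpr1a, -0.156 to 1.18 for Bmpr1b and -0.669 to 0.0440 for Id1. For TMPC against TMP it gave -0.371 to 0.269 for Bmp4, -0.0513 to 0.143 for Bmpr1a, -1.03 to 0.0149 for Bmpr1b, -0.331 to 0.358 for Id2 and -0.490 to 0.0875 for Id3.

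The labels do not say whether shared replicate numbers pair the libraries. Deviations from group means correlated at -0.416 to 0.291 for 18 same-numbered pairs and at -0.329 to 0.414 for 36 others. With 3 libraries per group, and single libraries that stood apart, these values do not settle the pairing. With the replicate block Id3 passed in TMP against TM (1.80, edgeR adjusted p = 0.0419) and in TMPC against TM (1.60, 0.0469), and the 4 site calls of the members were kept (0.0410 to 0.0441). Of the other pathway genes, 8 of 11 site calls were lost (Tcf12 at 0.0506, Smad5 at 0.0532; also Acvrl1, Eng, Neo1, Chrd, Fstl3 and Bmp3), as were 7 of 14 in TMPC against TM and 7 of 10 in TMP against TM. At these depths 3 counts equal 0.142 to 0.181 CPM before TMM scaling, which limits the lowest ligands.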
